A study of Mus musculus with 2 samples.

Results

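The 39 Hox genes of the mouse, defined here as every gene whose symbol is Hoxa, Hoxb, Hoxc or Hoxd followed by a number, were followed along the thick ascending limb (TAL) of the kidney. They were 39 of the 32227 genes in the count tables, and the 11 antisense and opposite-strand transcripts of the same clusters were kept apart. The data came from single-nucleus RNA sequencing of 2 libraries, 1 from kidney cortex and 1 from medulla, prepared from male B6 (C57BL/6) mice labelled WT with an age entry of 12 that carries no unit. Both libraries came from NKCC2-Cre-INTACT mice, in which a tamoxifen-inducible CreERT2 driven by NKCC2 (the Na-K-2Cl cotransporter encoded by Slc12a1) turned on a green fluorescent SUN1 protein at the nuclear membrane, and the GFP-positive nuclei were sorted. Both regions therefore shared the transgenes, the tamoxifen and the sort. The cortex library held a superficial strip of the kidney slices, and the medulla library held the remaining tissue, deep cortex included. The number of animals behind each library is not given in the sources used here. With 1 library per region, region and library cannot be told apart and no comparison has a replicate check, so no p-value is given, and the intervals are 95% intervals that cover counting error only.

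Hox proteins are transcription factors that bind DNA through a homeodomain, a compact fold whose recognition helix reads the base sequence. Their genes lie in 4 clusters on different chromosomes, numbered in the order of their expression along the body, and genes with the same number in different clusters (paralogs) descend from a common ancestor. In the embryo they set positional identity, and several, among them the group 11 paralogs, take part in the formation of the kidney. They often bind DNA together with TALE cofactors of the Pbx, Meis and Pknox families. The TAL itself reabsorbs NaCl and divalent cations, and the macula densa at its end senses luminal NaCl.

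The filtered barcodes numbered 5442 in cortex and 8121 in medulla, with 16457300 and 20947211 counts, a median of 2427 and 2430 counts per barcode, and 0 barcodes shared. Barcodes with at least 10 Slc12a1 counts were taken as TAL nuclei, 5218 in cortex and 7967 in medulla. Among them, nuclei with at least 3 counts of Nos1 plus Pappa2 were called macula densa, the rest with at least 2 Tmem52b counts TAL-β, the rest with at least 2 counts of Tmem207 plus Gpc5 TAL-γ, and the others TAL-α. This gave 2824 TAL-α, 1493 TAL-β, 248 TAL-γ and 653 macula densa nuclei in cortex, and 3776, 571, 3542 and 78 in medulla. Levels are given as CPM, a gene's share of the summed raw counts of a group on the usual common scale, so a class is compared as the sum of its nuclei. Fewer expressing nuclei and less RNA per nucleus are not told apart. At few counts per nucleus, the share of nuclei with a count itself follows the level.

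Markers that the class rule did not use were checked against the labels. The 6 TAL-α markers summed to 3267 CPM in cortical and 4045 in medullary TAL-α, against at most 2650 in any other TAL class. The 6 macula densa markers, which include the prostaglandin synthase Ptgs2, summed to 7486 CPM in cortical and 9547 in medullary macula densa nuclei, against at most 699 in any other TAL class. The 6 TAL-β markers summed to 4735 and 3198 CPM in TAL-β, against at most 1961 in any other TAL class. The 6 TAL-γ markers summed to 5992 CPM in medullary TAL-γ, of which Sgcz held 3919. They summed to 2908 in medullary TAL-α and 2586 in medullary TAL-β. Of these 6, Rbfox1 and Kcnj10 were higher in medullary TAL-β, at 1129 and 170 CPM, than in TAL-γ, at 863 and 109. The 248 cortical nuclei called TAL-γ went against their label, because the TAL-β markers summed to 1961 CPM there and the TAL-γ markers to only 1867. They are described by the rule, as cortical nuclei with Tmem207 plus Gpc5 counts, and enter no comparison of classes. Nuclei or free RNA of other cells also reached the TAL barcodes, and more so in cortex. At least 3 counts of 38 markers of other cell types were held by 18.0% of TAL-α barcodes in cortex and 2.81% in medulla, and the 7 proximal tubule markers, each with counts in both groups, summed to 2345 and 363 CPM.

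The 4 paralogs of group 9, Hoxa9, Hoxb9, Hoxc9 and Hoxd9, carried the main contrast of these data. The homeoboxes of Hoxb9 and Hoxc9, the 180 bases that encode the homeodomain, are shown. Their coding sequence is close, while their levels in TAL-α differed between the regions in opposite directions. They are written 5′ to 3′ on the coding strand, from the mouse genome GRCm39 with the GENCODE M39 annotation, and capitals mark the codons of the recognition helix, residues 42 to 58 of the homeodomain. Both lie on the plus strand in the last coding exon of their gene, that of Hoxb9 at chr11:96165485-96165664 and that of Hoxc9 at chr15:102892362-102892541.
Hoxb9: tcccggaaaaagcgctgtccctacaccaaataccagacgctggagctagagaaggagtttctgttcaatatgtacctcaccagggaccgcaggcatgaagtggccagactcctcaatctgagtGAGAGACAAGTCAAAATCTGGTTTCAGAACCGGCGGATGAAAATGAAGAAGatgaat
Hoxc9: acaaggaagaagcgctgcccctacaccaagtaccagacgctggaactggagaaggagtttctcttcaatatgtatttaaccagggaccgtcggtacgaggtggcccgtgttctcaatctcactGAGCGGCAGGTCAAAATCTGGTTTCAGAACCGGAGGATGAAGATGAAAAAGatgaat
Of the homeobox bases, 83.9% were identical between them. The encoded homeodomains shared 56 of 60 residues, and the helix was identical at 17 of 17 residues, although 45 of its 51 bases matched.

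The group 9 paralogs had different patterns of level. Hoxd9 was at 65.7 CPM (60.2 to 71.5) in cortical and 26.3 CPM (23.2 to 29.8) in medullary TAL-α. Its level in medullary TAL-γ was 14.4 CPM (12.0 to 17.0), the lowest of the 8 groups, and its intervals in both macula densa groups overlapped that of cortical TAL-α. Hoxb9 ran the other way between regions, at 56.0 CPM (50.9 to 61.4) in cortical TAL-α, 73.7 (68.3 to 79.4) in medullary TAL-α and 102 (96.0 to 109) in medullary TAL-γ. Hoxa9 varied least, from 53.3 CPM (38.7 to 71.6) in the cortical nuclei with Tmem207 plus Gpc5 counts to 90.4 (50.6 to 149) in medullary macula densa, and these intervals overlapped. Hoxc9 was highest in the macula densa, at 230 CPM (207 to 254) in cortex and 169 (112 to 244) in medulla, against 37.6 to 89.9 CPM in the other 6 groups. Hoxb9 was highest there as well, at 128 CPM in cortex and 133 CPM on 22 counts in medulla.

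**Figure D1:**
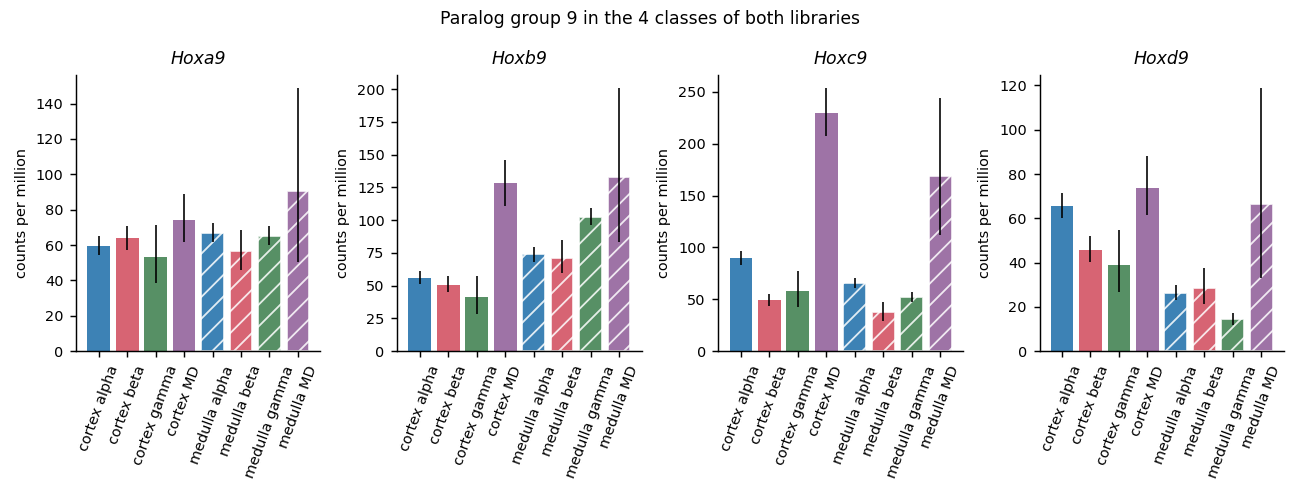
Levels of the 4 group 9 paralogs in CPM (y axis, starting at 0) in the 8 combinations of library and class (x axis), where bars are the summed level and whiskers the 95% Poisson interval of the counts. Hoxc9 and Hoxb9 stand highest in the macula densa, Hoxd9 is lowest in medullary TAL-γ at 14.4 CPM, and Hoxa9 stays within 53.3 to 90.4 CPM.

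Of the 39 Hox genes, 28 had at least 50 counts over all TAL nuclei and 9 had between 1 and 49. Hoxa13 and Hoxc12 had 0, where 3 counts would be 0.0832 CPM. The Hox genes together held 77139 counts, or 0.214% of all TAL counts. Among the scarce genes were Hoxb1 and Hoxc11 with 9 each, Hoxc10 with 4, Hoxa11 and Hoxc13 with 3 each, and Hoxd1, Hoxd12 and Hoxd13 with 1 each. Of the high-numbered genes at the ends of the clusters, Hoxd11 and Hoxb13 were the ones with at least 50 counts, Hoxb13 with 63. Levels of different genes are compared per kilobase of gene, since nuclear RNA includes introns. On that scale, over all TAL nuclei, Hoxb4 was highest at 46.2 CPM per kb, followed by Hoxb6 at 31.4, Hoxb5 at 27.7, Hoxd8 at 21.6, Hoxa5 at 20.4 and Hoxd4 at 18.7, while Hoxc5, a long gene that spans Hoxc6 to Hoxc10, was at 0.271. Whether intron reads were counted is not given in the sources used here, so the order depends on this scaling. Without it Hoxd4 was highest at 324 CPM and Hoxb4 was at 156.

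Summed over the 39 genes, the Hox level was 2510 CPM (2475 to 2545) in cortical TAL-α, 1830 (1794 to 1867) in TAL-β and 3563 (3473 to 3655) in macula densa. In medulla it was 2141 (2112 to 2171) in TAL-α, 1755 (1694 to 1819) in TAL-β, 1808 (1780 to 1836) in TAL-γ and 3578 (3296 to 3878) in macula densa. The order was macula densa, TAL-α and then TAL-β in both libraries, and TAL-β and TAL-γ overlapped in medulla. A nucleus held counts of few members at a time, with a median of 3 to 6 Hox genes across the 8 groups. After thinning each nucleus to 1000 counts the median was 3 in the macula densa of both libraries and 1 or 2 elsewhere.

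**Figure D2:**
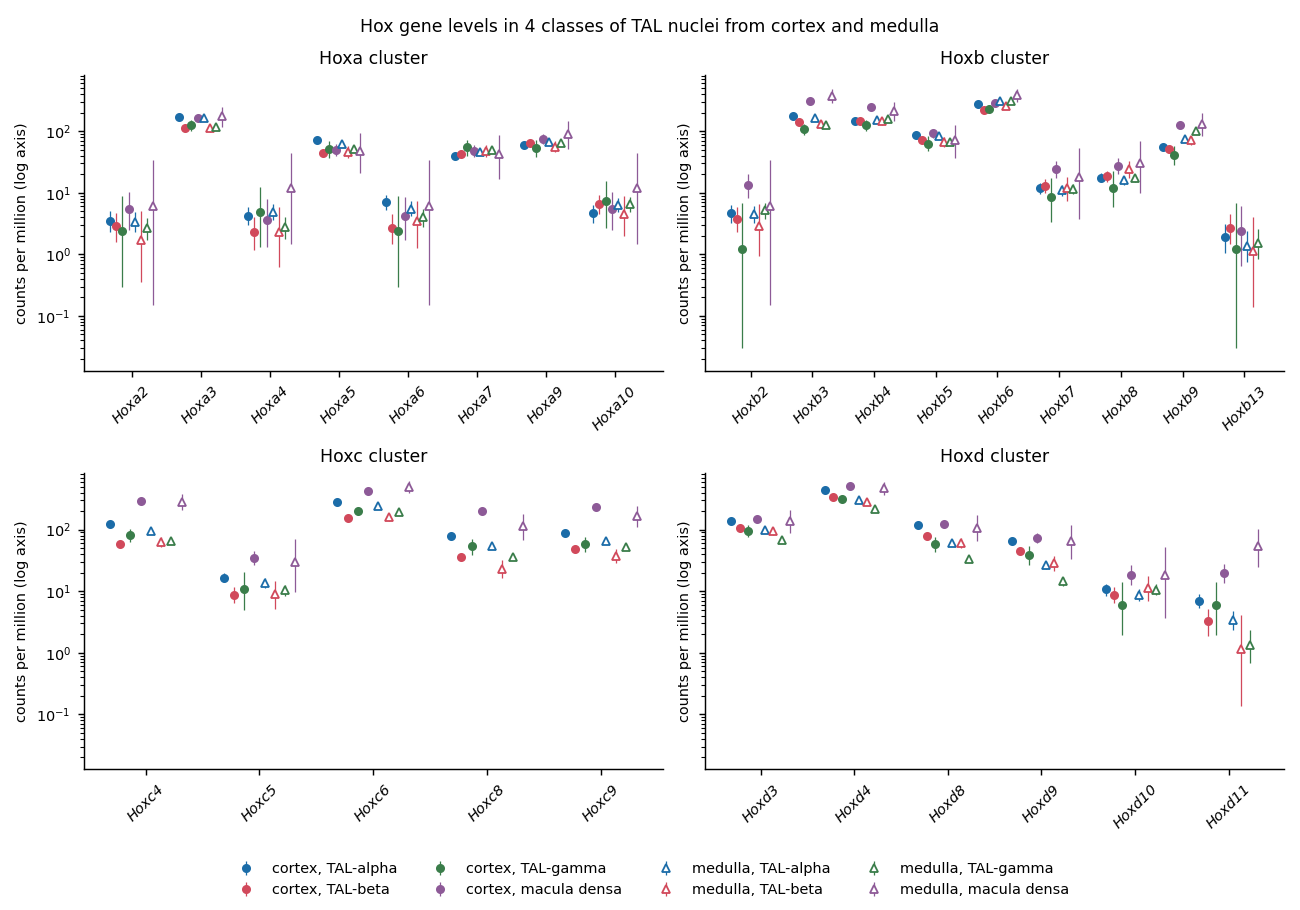
Levels of the 28 Hox genes with at least 50 counts, in CPM on a log axis, in the 8 combinations of library and class, with points for summed levels and bars for 95% Poisson intervals. The macula densa points lie above TAL-α for most Hoxc genes, and the medullary points lie below the cortical ones for Hoxd9 and Hoxd8 in TAL-α.

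The Hoxd cluster, on chromosome 2, differed most between the regions in TAL-α. Its summed level in TAL-α was 0.644 times (0.620 to 0.670) as high in medulla as in cortex, that of Hoxc was 0.787 (0.755 to 0.820), Hoxa was 0.988 (0.940 to 1.04) and Hoxb was 1.05 (1.01 to 1.08). The Hoxd and Hoxc intervals do not overlap each other or those of the other clusters. The Hoxb sum turned direction, to 0.935 (0.902 to 0.970), without the barcodes that held other cell types' markers, and the Hoxa sum to 1.04 (0.990 to 1.09) with median-ratio scaling, so these sums give no regional direction. In TAL-β the Hoxd ratio was 0.835. In macula densa it was 0.966, nearer to 1 than those of Hoxc at 0.927, Hoxb at 1.09 and Hoxa at 1.10. The macula densa nuclei of the 2 libraries were alike in position by the regional genes described below.

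A gene was counted as higher or lower where the ratio of its levels was at least 1.5 or at most the inverse, among genes with at least 50 counts in the groups compared. In TAL-α, 27 Hox genes could be compared between medulla and cortex, and 0 were higher and 3 lower in medulla. Of all 12585 genes compared, 4.79% were higher and 16.5% lower, so the share of Hox genes past the fold was below that of all genes. The median log2 ratio was -0.13 over the Hox genes and -0.07 over all genes. The 3 genes belong to the Hoxd cluster. Hoxd9 had 523 counts in cortex and 247 in medulla, and its ratio was 0.401 (0.343 to 0.468). Hoxd8 was at 118 CPM (111 to 126) in cortex and 60.6 (55.7 to 65.8) in medulla, a ratio of 0.512 (0.460 to 0.568). Hoxd11, a regulator of early kidney growth, was at 7.03 CPM on 56 counts and 3.41 CPM on 32 counts, a ratio of 0.485 (0.304 to 0.762). The levels of Hoxd9 and of Hoxd8 did not overlap between the regions.

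The other Hoxd and Hoxc genes went the same way without passing the fold. Hoxd4, the Hox gene with the most counts, was at 434 CPM (419 to 448) in cortical and 302 (291 to 314) in medullary TAL-α, a ratio of 0.697 (0.663 to 0.733). Hoxd3, which overlaps Hoxd4 on the same strand, had a ratio of 0.703, Hoxc8 of 0.701, Hoxc9 of 0.728 and Hoxc4 of 0.746. Hoxb9 had the opposite direction, with a ratio of 1.32 (1.17 to 1.49). Hoxb6 was at 277 CPM (266 to 289) in cortex and 310 (299 to 322) in medulla, a ratio of 1.12 (1.06 to 1.18), and Hoxa9 had a ratio of 1.12 (0.994 to 1.27). Hoxb4, the most abundant member per kilobase, was at 149 CPM (140 to 157) and 152 (145 to 160), which overlap.

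The share of nuclei with a count of the Hoxd genes differed in the same direction, which at few counts per nucleus follows from the level. Hoxd4 was counted in 65.7% of cortical TAL-α nuclei (63.9 to 67.4, Clopper-Pearson) and 47.1% of medullary ones, and after thinning to 1000 counts in 35.7% and 24.6%. Hoxd9 was counted in 15.5% and 5.91%, and after thinning in 7.05% and 2.66%. Hoxb6 was counted in 50.7% and 50.9%. No cell type that lacks Hox genes was singled out in these libraries, so the shares are set beside the barcodes with fewer than 10 Slc12a1 counts, whose median depth was 2606 counts in cortex and 3870 in medulla. There, Hoxd9 was counted in 4.91% and 3.25% of barcodes, Hoxd4 in 41.1% and 25.3%, and Hoxb6 in 26.3% and 20.8%.

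RNA outside nuclei carried the same regional contrast. In barcodes outside the filtered set, Hoxd9 was at 72.5 CPM (64.1 to 81.8) in cortex and 33.4 (26.8 to 41.1) in medulla. With 10% of each group's counts removed in the proportions of those barcodes, the Hoxd9 ratio in TAL-α was 0.394. Without the barcodes that held at least 3 counts of other cell types' markers, the proximal tubule sum was 79.6 CPM in cortex and 27.3 in medulla, and the ratios of the Hoxd genes named above lay further from 1, while that of Hoxb9 was 1.21 (1.06 to 1.38). In these nuclei Hoxd9 was at 74.7 CPM in cortex and 27.2 in medulla, a ratio of 0.365 (0.310 to 0.428). Hoxd8 had a ratio of 0.445, Hoxd11 of 0.439 and Hoxd4 of 0.600 (0.570 to 0.633). Of the 27 genes, 9 were then lower, the further 5 being Hoxa6, Hoxc4, Hoxc8, Hoxc9 and Hoxd3 at ratios of 0.611 to 0.654, where 11.8% of all genes were lower. The gene that was then higher was Hoxa10, with 54 counts against 18 and a ratio of 1.87 (1.08 to 3.39), where 5.26% of all genes were higher.

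**Figure D3:**
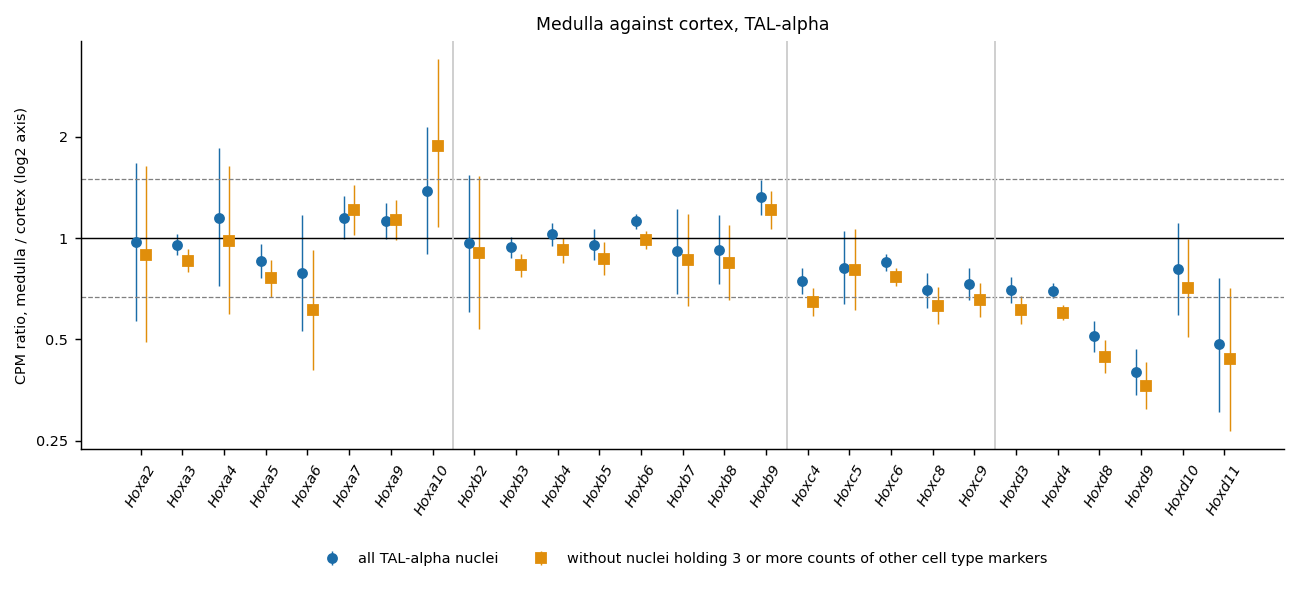
Ratio of the level in medullary to that in cortical TAL-α (log axis) for the Hox genes with at least 50 counts, for all TAL-α nuclei and for those without other cell types' markers, with 95% conditional binomial intervals. Hoxd9, Hoxd8 and Hoxd11 lie lowest in both sets of nuclei, and Hoxb9 lies above 1.

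In TAL-β, 21 Hox genes could be compared between the regions, 0 were higher and 2 lower in medulla, against 3.28% and 16.5% of all 10489 genes. Hoxc8 was at 36.1 CPM in cortex and 23.3 in medulla, a ratio of 0.646 (0.449 to 0.909), and Hoxd9 at 45.7 and 28.5, a ratio of 0.623 (0.450 to 0.848). In macula densa, 19 genes could be compared, 0 were higher and 1 lower, against 8.15% and 18.8% of all genes. That gene was Hoxc8, at 198 CPM on 330 counts in cortex and 114 CPM on 19 counts in medulla, a ratio of 0.578 (0.344 to 0.918). The Hoxd9 levels of the macula densa overlapped between the regions, at 73.8 CPM (61.3 to 88.0) and 66.3 (33.1 to 119), and so did those of Hoxd8 and Hoxd4. The interval of medullary macula densa is wide, since it rests on 78 nuclei. By the regional genes described below, the median medulla-side share was 0.267 in cortical and 0.275 in medullary macula densa. The macula densa values therefore compare 2 libraries and not 2 positions along the TAL.

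Position within each library was then read from genes other than Hox. For each TAL-α nucleus, the share of 13 medulla-side genes in the counts of those and 13 cortex-side genes was computed, and the nuclei of each library were cut into 3 parts of about equal size. The gene lists had been chosen on these same libraries, so the axis is not independent of the regional contrast, but it holds no Hox gene and each comparison stays within 1 library. In medulla the median share was 0.471 in the cortex-side part and 1.00 in the medulla-side part, and in cortex 0.167 and 0.511. The TAL-γ markers moved along this axis too. Among them Sgcz, at 421 and 4293 CPM in the cortex-side and medulla-side parts of medulla, is also 1 of the 13 medulla-side genes. In medulla the TAL-γ markers summed to 947 CPM in the cortex-side and 5386 in the medulla-side part. There they exceeded the 4028 CPM of the TAL-α markers. In cortex they summed to 495 and 857 CPM. The medulla-side TAL-α nuclei of medulla are therefore named by the rule only, and the part of class in the axis was not tested.

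Within the medulla library, the Hoxd genes were again lower on the medulla side. Of 21 Hox genes compared, 4 were lower on the medulla side and 1 higher, against 14.5% and 7.61% of all 9582 genes. Hoxd9 was at 42.6 CPM (35.9 to 50.1) on the cortex side and 16.1 (11.8 to 21.5) on the medulla side, a ratio of 0.378. Hoxd8 was at 95.8 CPM (85.7 to 107) and 37.4 (30.7 to 45.2), a ratio of 0.391. Hoxd4 was at 414 CPM (392 to 436) and 208 (192 to 226), a ratio of 0.503, and Hoxd3 at 130 and 72.0 CPM, a ratio of 0.554. None of these 4 pairs of levels overlapped. Hoxb9, a Hoxb gene, was the one that was higher, at 56.5 CPM (48.8 to 65.1) on the cortex side and 93.4 (82.5 to 105) on the medulla side, a ratio of 1.65 (1.37 to 2.00). The summed Hoxd level had a ratio of 0.493 along this axis and the summed Hoxb level one of 1.11.

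In the medulla library, nuclei with markers of other cells were 3.65% of the cortex-side and 1.11% of the medulla-side part. Without them Hoxd9 had a ratio of 0.367, Hoxd8 of 0.398, Hoxd4 of 0.495 and Hoxd3 of 0.531, and Hoxd10 was also past the fold at 0.603, which made 5 genes lower against 13.1% of all genes. The 2 higher genes were Hoxb9 at 1.64 and Hoxa7 just at the 1.5-fold limit, against 8.09% of all genes.

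Within the cortex library the Hoxd genes were lower on the medulla side as well, but other cells' RNA moved with the axis. Of 21 genes, 6 were lower on the medulla side and 0 higher, against 6.36% and 11.6% of all 9712 genes. Hoxd8 was at 150 CPM (135 to 167) on the cortex side and 79.0 (69.4 to 89.6) on the medulla side, a ratio of 0.526. Hoxd3 had a ratio of 0.604, Hoxd4 of 0.613 and Hoxd9 of 0.630, and Hoxb7 was at 14.3 and 8.16 CPM, a ratio of 0.570. Hoxb9 was lower as well, at 75.5 CPM (64.7 to 87.6) and 44.1 (37.0 to 52.2), a ratio of 0.584 (0.463 to 0.735), which is the opposite direction from the medulla library. Barcodes with other cells' markers made up 7.17% of the cortex-side and 29.7% of the medulla-side part here, and the proximal tubule markers summed to 337 and 4021 CPM. Without those barcodes 1 gene was lower, Hoxb9 at a ratio of 0.660 (0.501 to 0.865), and 0 were higher, against 4.81% and 3.96% of all 8162 genes. Hoxd8 then had a ratio of 0.679 (0.562 to 0.817), Hoxd3 of 0.722, Hoxd9 of 0.744 (0.575 to 0.960) and Hoxd4 of 0.778 (0.708 to 0.854). These intervals stayed below 1, while the ratios were nearer to 1 than among all nuclei.

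**Figure D4:**
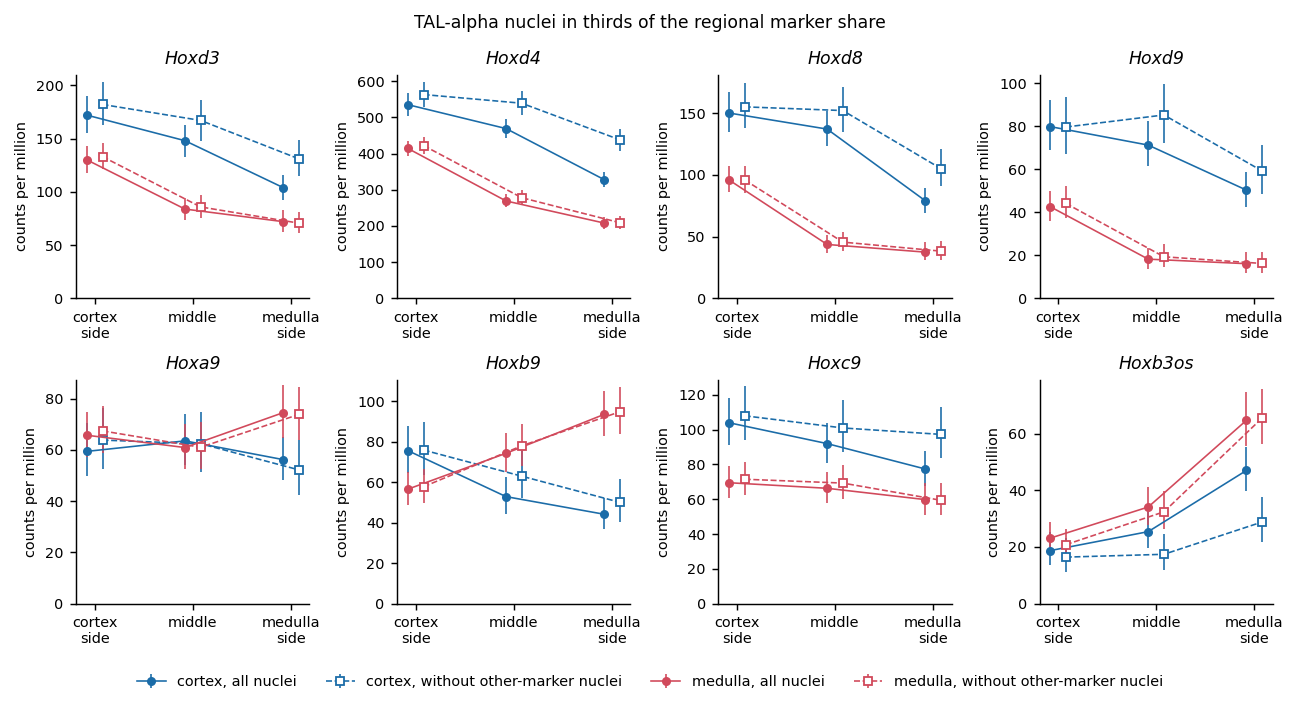
Levels in CPM of 7 Hox genes and the transcript Hoxb3os across the cortex-side, middle and medulla-side parts of the TAL-α nuclei of each library, with 95% Poisson intervals, for all nuclei and for those without other cell types' markers. Hoxd9, Hoxd8, Hoxd4 and Hoxd3 are lower on the medulla side than on the cortex side in both libraries, while Hoxb9 is higher there in medulla and lower in cortex.

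The log2 ratios of the 21 Hox genes along the axis had a Pearson correlation of 0.53 between the libraries and a Spearman correlation of 0.44, a description over genes of shared clusters. Across the clusters that PIPseeker had assigned in medulla, Hoxd9 ranged from 9.60 CPM on 9 counts to 90.8 CPM in the cluster of mostly macula densa nuclei. The low cluster was mixed, with 43.3% TAL-α nuclei. It was also the lowest for Hoxa9, Hoxb9, Hoxc9, Hoxd4 and Hoxd8. Over the 12 clusters of that library the Hoxd9 level had a Pearson correlation of -0.93 and a Spearman correlation of -0.71 with the medulla-side share. Over the 11 cortical clusters the values were -0.62 and -0.76. Clusters of 1 library share its depth and free RNA, so these are descriptions.

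Among the TAL classes, TAL-β nuclei, which carry the divalent cation pathway with Cldn16, had a lower summed Hox level than TAL-α in both libraries. Not each gene was lower. In cortex Hoxa7, Hoxa9, Hoxa10, Hoxb7 and Hoxb8 had ratios of 1.05 to 1.40, with intervals that included 1. In cortex, 10 of 25 genes were lower in TAL-β and 0 higher, against 4.15% and 5.44% of all 12244 genes. The median log2 ratio was -0.38 over the Hox genes and 0.01 over all genes. The Hoxc cluster led, with a summed ratio of 0.514. Hoxc4 was at 125 CPM (118 to 133) in TAL-α and 57.9 (51.6 to 64.9) in TAL-β, a ratio of 0.462. Hoxc8 was at 77.6 and 36.1 CPM, a ratio of 0.466. Hoxc6 was at 286 CPM (274 to 298) and 154 (143 to 165), a ratio of 0.538, and Hoxc9 at 89.9 and 49.1, a ratio of 0.547. None of these 4 levels overlapped between the classes. Hoxc5, whose span covers Hoxc6 to Hoxc10, had a ratio of 0.527. Outside Hoxc, Hoxa5 was at 72.9 and 44.0 CPM, a ratio of 0.603, and Hoxa6 and Hoxd11, with 14 and 17 counts in TAL-β, had ratios of 0.381 and 0.462. Hoxa3 and Hoxd8 completed the 10 at ratios of 0.655 and 0.657. The level was not even within the class. Hoxc6 was at 216 CPM in a deposited cluster with 71.7% TAL-β nuclei and at 69.3 in another with 77.0%. Barcodes with other cells' markers were 28.5% of cortical TAL-β and 18.0% of TAL-α. Without them 10 of 23 genes were lower and 0 higher, against 7.05% and 4.95% of all 10518 genes. The median log2 ratio of the Hox genes was then -0.42. The part of other cells' RNA in the remaining barcodes was not tested.

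In medulla, 5 of 24 genes were lower in TAL-β and 0 higher, against 7.95% and 6.97% of all 11129 genes, with a median log2 ratio of -0.29 over the Hox genes. Hoxc8 was at 54.4 CPM (49.8 to 59.3) in TAL-α and 23.3 (16.7 to 31.7) in TAL-β, a ratio of 0.429. Hoxc9 was at 65.5 and 37.6 CPM, a ratio of 0.574, and Hoxc6 at 242 (232 to 252) and 158 (140 to 177), a ratio of 0.652. Hoxa4 and Hoxa6, at 0.464 and 0.616, rested on 4 and 6 counts in TAL-β. The Hoxc sum had a ratio of 0.620. The Hoxd sum had one of 0.960, or 1.02 within deposited clusters, and of 0.741 in cortex. The log2 ratios of 23 Hox genes had a Pearson correlation of 0.64 and a Spearman correlation of 0.67 between the libraries.

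Medullary TAL-γ nuclei had less Hoxd9 and Hoxd8 than medullary TAL-α. Of 26 genes, 4 were lower and 0 higher, against 5.27% and 2.52% of all 12347 genes. Hoxd9 was at 14.4 CPM against 26.3 in TAL-α, a ratio of 0.545, and Hoxd8 at 33.6 (29.9 to 37.6) against 60.6, a ratio of 0.554. Hoxc8 had a ratio of 0.654, and Hoxa4 one of 0.563 on 25 and 46 counts. Hoxb9 was 1.39 times (1.26 to 1.54) as high in TAL-γ, short of the fold, and Hoxb6 was at 315 CPM (303 to 327) against 310 (299 to 322). The median log2 ratio was -0.33 for Hox genes and 0.00 for all genes. The medulla-side gene sum was 23997 CPM in TAL-γ and 17631 in TAL-α, so class and position moved together here, and their parts were not tested.

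The macula densa held more Hox RNA than TAL-α in both libraries, with the largest ratio for the Hoxc sum in each. In cortex, 13 of 24 genes were higher and 1 lower, against 12.1% and 12.3% of all 11465 genes, and 15 of the 24 intervals lay above 1. The median log2 ratio was 0.63 over the Hox genes and 0.03 over all genes. Hoxc9 was at 230 CPM against 89.9, a ratio of 2.56 (2.25 to 2.90). Hoxc8 was at 198 (177 to 220) against 77.6 (71.6 to 84.0), a ratio of 2.55, and Hoxc4 at 290 (264 to 317) against 125, a ratio of 2.31. Hoxb9 was at 128 (111 to 146) against 56.0, a ratio of 2.28. These 4 levels were well apart. Hoxb2 and Hoxd11, with 22 and 33 counts in macula densa, had the largest ratios, 2.84 and 2.81, and Hoxc5 and Hoxb7 had ratios of 2.08 and 2.06. The remaining higher genes were Hoxb3, Hoxb4, Hoxb8, Hoxc6 and Hoxd10 at 1.51 to 1.78. The lower gene was Hoxa6 at 0.597 on 7 counts. The Hoxa sum had a ratio of 0.987, and of 1.08 within deposited clusters.

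In medulla, 14 of 23 genes were higher in macula densa and 0 lower, against 23.5% and 28.8% of all 10775 genes. These values rest on 78 nuclei whose median medulla-side share was 0.275, against 0.906 in TAL-α, so that class and position moved together and their parts were not tested. Of the higher genes, Hoxd9, Hoxd8 and Hoxd4 are among those that were lower on the medulla side. In all, 9 of the 23 Hox intervals lay above 1. Hoxc4 was at 283 CPM (208 to 376) against 93.5 (87.4 to 99.9), a ratio of 3.03. Hoxc9 was at 169 (112 to 244) against 65.5, a ratio of 2.58, and Hoxb3 at 379 (292 to 486) against 164 (156 to 173), a ratio of 2.31. Hoxc6 was at 500 (398 to 620) against 242, a ratio of 2.07. Hoxc8 and Hoxc5 had ratios of 2.10 and 2.21, on 19 and 5 counts in macula densa. Hoxd9 had a ratio of 2.52 on 11 counts, and 1.35 after thinning to 1000 counts, and Hoxd10 one of 2.09 on 3 counts. The remaining higher genes, Hoxa10, Hoxb7, Hoxb8, Hoxb9, Hoxd4 and Hoxd8, were at 1.55 to 1.88. Of these, Hoxa10, Hoxb7 and Hoxb8 rested on 2, 3 and 5 counts in macula densa. Their intervals, and those of Hoxc5 and Hoxd10, included 1. Hoxd11 had too few counts for the comparison and was at 54.2 CPM (24.8 to 103) on 9 counts in macula densa and 3.41 (2.33 to 4.82) in TAL-α.

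The Hoxc sum was 1.99 times as high in macula densa as in TAL-α in cortex and 2.34 times in medulla, the Hoxb sum 1.46 and 1.51 times, and the Hoxd sum 1.15 and 1.72 times. The log2 ratios of 22 Hox genes had a Pearson correlation of 0.73 and a Spearman correlation of 0.74 between the libraries. The share of nuclei with a count, which follows the level, was higher too. Hoxc4 was counted in 47.0% of cortical macula densa and 27.7% of TAL-α nuclei, and after thinning to 1000 counts in 27.6% and 12.3%. Markers of other cell types were held by 10.1% of cortical macula densa and 18.0% of TAL-α barcodes, and the proximal tubule sum was 1707 and 2345 CPM, but other sums were higher in macula densa, as for distal convoluted tubule at 178 against 87.9 CPM and endothelium at 87.0 against 73.2, and the principal cell sum was also higher. In medulla, 1.28% of macula densa and 2.81% of TAL-α barcodes held such markers, and the proximal tubule sum was 530 against 363 CPM and the distal convoluted tubule sum 30.1 against 6.61. The markers of principal, intercalated, stromal, podocyte and immune cells were at 0 there, where 3 counts would be 18.1 CPM, which is more than most of these sums in TAL-α. Without the barcodes that held other cells' markers, 11 of 23 genes were higher and 1 lower in cortex, against 15.0% and 15.2% of all genes. In medulla 14 of 23 were then higher and 0 lower, against 24.2% and 28.7%. The part of other cells' RNA in the remaining barcodes was not tested.

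**Figure D5:**
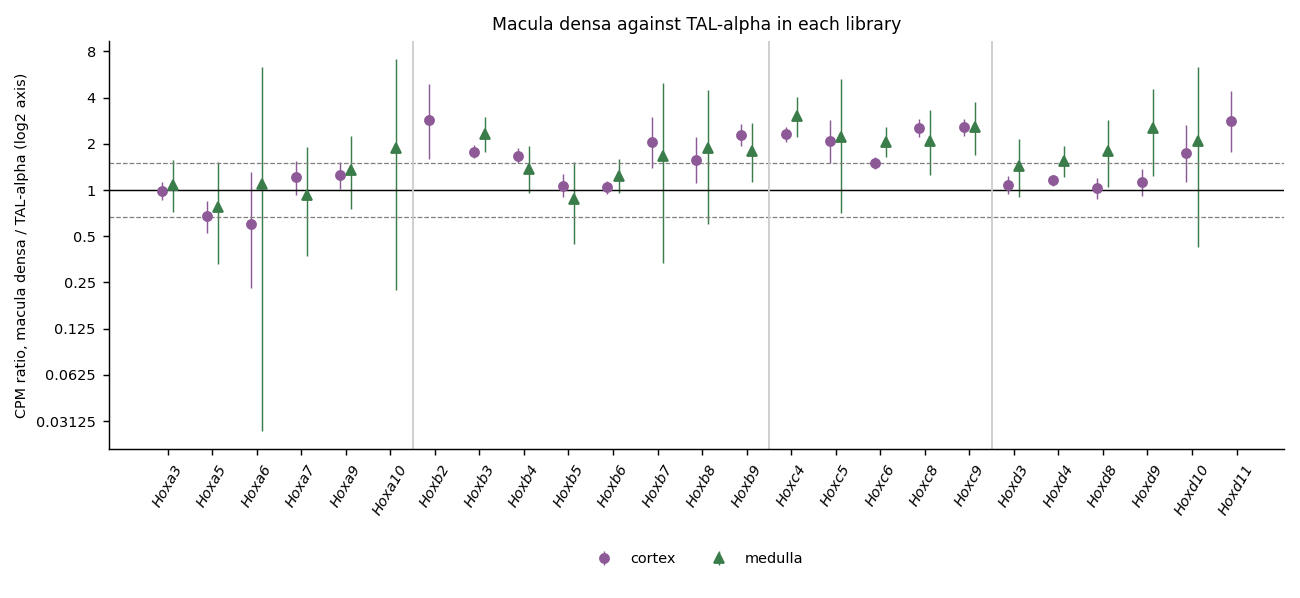
Ratio of the level in macula densa to that in TAL-α (log axis) for the Hox genes compared in cortex and in medulla, with 95% conditional binomial intervals. Hoxc4, Hoxc8 and Hoxc9 lie above 2 in both libraries, and the medullary intervals are wide.

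Of the 11 antisense and opposite-strand transcripts, 6 had at least 50 counts. Whether reads were counted by strand is not given in the sources used here, so reads of these transcripts and of the genes opposite them may not be separable. Hoxb5os, opposite Hoxb5 to Hoxb9, was at 186 CPM (166 to 208) in cortical macula densa and 66.8 (61.2 to 72.7) in TAL-α, a ratio of 2.78 (2.41 to 3.21). In medulla it was at 253 (182 to 342) and 58.6, a ratio of 4.31 (3.07 to 5.91). Of the genes opposite it, Hoxb5 was at 93.0 CPM (78.9 to 109) and 86.8 (80.4 to 93.5) in cortex, which overlap, and Hoxb6 had a ratio of 1.05. Hoxb7, Hoxb8 and Hoxb9 were higher in cortical macula densa, at 2.06, 1.58 and 2.28. Hoxb3os, opposite Hoxb2 and Hoxb3, had 0 counts in medullary macula densa against 39.5 CPM in TAL-α, a ratio interval of 0 to 0.566. At 3 counts, or 18.1 CPM, it would be 2.18-fold lower than in TAL-α. It was higher on the medulla side, at 64.7 CPM against 23.1 on the cortex side in the medulla library, a ratio of 2.80, and at 47.0 against 18.7 CPM in cortex, a ratio of 2.52, or 1.76 (1.10 to 2.85) without barcodes with other cells' markers. Its level in barcodes with fewer than 10 Slc12a1 counts was higher still, at 66.2 and 79.7 CPM. Between the regions in TAL-α it was 1.24 times (1.06 to 1.46) as high in medulla, short of the fold, and 1.85 times without barcodes with other cells' markers.

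Hoxd3os1, opposite Hoxd3, Hoxd4 and Hoxd8, had the direction of those genes, with a ratio of 0.416 along the axis in medulla and 0.611 in cortex, or 0.846 in cortex without barcodes with other cells' markers. Hoxaas3, opposite Hoxa3 to Hoxa7, was 1.59 times (1.15 to 2.21) as high in medullary as in cortical TAL-α, and 1.67 times as high in macula densa as in TAL-α in cortex. Hoxb5os was lower on the medulla side in medulla, at a ratio of 0.658. Hotairm1 had ratios of 0.520 for TAL-β to TAL-α in medulla and 0.606 for macula densa to TAL-α in cortex. Halr1 had ratios of 2.15 for TAL-β to TAL-α in cortex and 0.248 for medulla to cortex in TAL-β, the latter on 4 and 48 counts. Hoxb3os had a ratio of 0.649 for TAL-β to TAL-α in medulla, and Hoxd3os1 ratios of 0.569 and 0.649 on 3 counts for medullary macula densa against cortical macula densa and medullary TAL-α. The 5 scarce transcripts were Hoxaas2 with 47 counts, Hotair and Hoxa11os with 9 each, Haglr with 4 and Hottip with 1.

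The TALE cofactors, with which Hox proteins bind DNA, had 11 members in the tables. In TAL-α, 1 of 9 with enough counts was lower in medulla and 0 higher, against 16.5% and 4.79% of all genes. Meis2 was at 47.7 CPM in cortical and 11.3 in medullary TAL-α, a ratio of 0.237 (0.189 to 0.295), and in TAL-β at 99.1 and 9.68 CPM, a ratio of 0.0977 (0.0565 to 0.158). In macula densa its ratio was 0.205 on 2 medullary counts. Along the axis it was lower on the medulla side in medulla, at a ratio of 0.123 on 5 counts, and higher in cortex, at 1.60 (1.23 to 2.08). Cortical TAL-β held 2.08 times the Meis2 level of TAL-α. Barcodes with other cells' markers differed between the same groups. They were 28.5% of cortical TAL-β, 18.0% of cortical and 2.81% of medullary TAL-α. Along the cortical axis they were 7.17% on the cortex side and 29.7% on the medulla side. Their part in the Meis2 levels was not tested. Meis1 was higher on the medulla side in both libraries, at 1.75 (1.28 to 2.41) in medulla and at the 1.5-fold limit in cortex. It had 0 counts in medullary macula densa, where 3 counts would be 1.62-fold lower than in TAL-α.

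Pbx3, like the Hoxc genes, was higher in macula densa than in TAL-α in both libraries. In cortex it was at 721 CPM against 275, a ratio of 2.62 (2.44 to 2.81). In medulla it was at 988 against 310, a ratio of 3.19 (2.71 to 3.73). Pknox2 went the other way. It was at 114 CPM in cortical TAL-α, 39.2 in TAL-β and 26.4 in macula densa, and in medulla at 106, 48.4 and 0 CPM. In medullary macula densa, 3 counts would be 5.85-fold lower than in TAL-α. The Pknox2 ratio was 0.582 for TAL-γ to TAL-α and 0.486 along the medullary axis. Pknox1 was higher in macula densa at 1.55 and 2.63, and Pbx4 had ratios of 1.69 for cortical TAL-β, 1.86 for cortical macula densa and 0.570 for TAL-γ, each against TAL-α. Pbx2 was at 2.41 for medullary macula densa on 7 counts. Of 8 cofactors compared in cortical macula densa, 3 were higher and 1 lower, against 12.1% and 12.3% of all genes, and of 7 in medullary macula densa 3 were higher and 2 lower, against 23.5% and 28.8%.

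The chromatin regulators of the Polycomb and Trithorax groups, which hold Hox clusters silent or active, had 0 of 18 members past the fold in the 3 comparisons of TAL-β or TAL-γ with TAL-α. Of all genes, 2.52% to 6.97% were higher and 4.15% to 7.95% lower in these comparisons. In cortical macula densa Ezh1, Cbx7 and Psip1 were higher than in TAL-α, at 1.56, 1.95 and 1.77, and Kmt2b was lower at 0.649. That is 3 higher and 1 lower of 18, against 12.1% and 12.3% of all genes. In medullary macula densa Cbx7 at 3.67 (1.92 to 6.42), Ezh2 at 1.74 and Suz12 at 1.65 were higher and Rnf2, Kmt2b and Men1, on 1 to 3 counts, lower at 0.496 to 0.642. Of 18 compared there, 4 were higher and 3 lower, against 23.5% and 28.8% of all genes. Between the macula densa of the regions, Cbx7 was higher at 1.55 and Ezh1, Ring1, Rnf2 and Psip1 were lower at 0.443 to 0.573. That is 1 higher and 4 lower of 14, against 8.15% and 18.8% of all genes. Along the axis Men1 was higher in medulla at 1.86, and Jarid2 higher in cortex at 1.59, each of 16, where 7.61% and 11.6% of all genes were higher.

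Retinoic acid, an inducer of Hox genes in embryos, acts through Rar and Rxr receptors. Of 15 genes of that pathway, 7 had enough counts in TAL-α, and between regions Rxrb was higher in medulla at 1.54 (1.18 to 2.01), where 4.79% of all genes were higher. Rxra was lower in medullary TAL-β at 0.589 and on the medulla side in medulla at 0.420, where Rara was higher at 1.60. Rarg was lower in medullary TAL-β than TAL-α at 0.661, and Rxrb higher in cortical macula densa at 1.54. Genes that flank the clusters were listed too. Of 10 compared between regions in TAL-α, Snx10, beside Hoxa, was lower in medulla at 0.452 and 0 were higher, against 16.5% and 4.79% of all genes, with a median log2 ratio of 0.24. In TAL-β Snx11 was lower at 0.629, and in macula densa 0 of 7 were past the fold, against 8.15% higher and 18.8% lower of all genes. Calcoco1 was higher in cortical TAL-β at 1.55 and on the medulla side in medulla at 2.56, and lower in cortical macula densa at 0.601, where Snx10 was higher at 3.85. Skap2 and Snx11 were lower in medullary TAL-β at 0.653 and 0.636, Snx10 lower in TAL-γ at 0.480, and Skap1 lower along the cortical axis at 0.637. In medullary macula densa Skap1 and Snx11 were higher at 1.71 and 1.79, and Skap2, Cbx5 and Mtx2 lower at 0.428 to 0.587.

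The 248 cortical nuclei with Tmem207 plus Gpc5 counts had a Hox sum of 1819 CPM (1728 to 1914), which overlaps those of cortical TAL-β and medullary TAL-γ. By cluster they differed from cortical TAL-β, with Hoxc at 405 CPM (363 to 451) against 307 (292 to 322) and Hoxb at 590 (539 to 645) against 674 (652 to 697). Hoxd9 was at 38.8 CPM (26.5 to 54.8) there and Hoxb9 at 41.2 (28.5 to 57.6). Medullary TAL-γ differed from them as medulla differed from cortex in TAL-α, with ratios of 0.370 (0.250 to 0.563) for Hoxd9, 0.577 for Hoxd8 and 2.49 (1.77 to 3.61) for Hoxb9. Because these cortical nuclei did not carry the TAL-γ markers above the TAL-β ones, the ratios set 2 unlike groups side by side.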

How the data were processed

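The deposited counts were used as the authors made them. Nuclei of NKCC2-Cre-INTACT kidneys were sorted, libraries were made with a PIPseq T10 3′ kit and reads were aligned to GRCm39 and assigned to barcodes by PIPseeker. The submitters' processing notes also name bcl2fastq and Seurat 4.4.0. The matrices used here hold raw counts from before the authors' doublet, ambient RNA and normalization steps. Strand and intron settings of the counting are not given in the sources used here.

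Counts were summed per library and class and given as CPM with exact Poisson intervals. Ratios have conditional binomial intervals and shares Clopper-Pearson intervals, all at 95%, and cover counting error only. Called genes had at least 50 counts in both groups together and a ratio past 1.5. The fold and intervals were tested on simulated data. Hox genes with at least 50 counts were named with levels, up to 8 called genes per comparison were given with values, and called genes of the antisense, TALE, Polycomb and Trithorax, retinoic acid and neighbour lists were named. The members, lists and class rule were chosen with earlier results of these data known. No doublets were removed, except in the alternative with Scrublet. That caller's automatic threshold gave 359 doublets in cortex and 2 in medulla, where the 406 barcodes with the highest scores were removed instead. Homeoboxes were read from GRCm39 with GENCODE M39 coding exons. A few called or scarce genes and some homeoboxes are not reported here. Python 3.11.15, numpy 2.4.6, scipy 1.17.1, pandas 2.3.3 and scanpy 1.11.5 were used. The 10 alternatives were 2 other Slc12a1 minimums, stricter classes, a filter with Scrublet, removal of barcodes with other cells' markers, thinning to 1000 counts, median-ratio scaling, deposited clusters, a minimum of 20 counts and removal of 10% free RNA.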

Additional observations from a re-analysis of the deposited data

Results flagged for a closer look

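Hoxb9 was set apart because its direction along the cortex-to-medulla axis of TAL-α was opposite in the 2 libraries. It was 1.65 times as high on the medulla side as on the cortex side in medulla, and 0.584 times in cortex. The difference was not tested, since each library is 1 sample.

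Hox counts were also found in barcodes outside the comparisons. In barcodes with fewer than 10 Slc12a1 counts the summed Hox level was 1229 CPM in cortex and 794 CPM in medulla. In barcodes outside the filtered set it was 2363 CPM in cortex and 2065 CPM in medulla, close to the 2510 and 2141 CPM of TAL-α.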

How the results depend on the processing

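No paired analysis was possible because each region has 1 library, and for the same reason no replicate could be left out. Of 477 ratios of called Hox genes recomputed under the 10 alternatives, 459 stayed within the interval first given and 0 reversed. This tally includes 50 ratios under the minimum of 20 counts, which cannot change a ratio. The settings that moved ratios out of the interval were thinning, with 33 of 40 inside, deposited clusters, with 41 of 47, and removal of barcodes with other markers, with 42 of 47. Sums over a cluster were less stable near 1. Of 360 recomputed cluster sums, 46 left the interval and 21 crossed to the other side of 1, in 11 of the 40 sums, none of them past the fold. They include the Hoxb sum between regions, which went to 0.935 in TAL-α without barcodes with other markers and to 0.915 in TAL-β within deposited clusters, and the Hoxb sum of cortical TAL-β against TAL-α, which went from 0.865 to 1.04 within deposited clusters. Past a 1.5-fold move were Hoxd11 in cortical macula densa against TAL-α, from 2.81 to 4.35 within deposited clusters, and Hoxd9 in medullary macula densa against TAL-α, from 2.52 to 1.35 after thinning. Of 200 recomputed counts of Hox genes past the fold, 159 stayed within 1.5 times. Scaling by the median ratio shifted all genes by at most 0.07 on the log2 scale. The 78 medullary macula densa nuclei limit what can be seen there.

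Between regions in TAL-α, genes higher went from 0 to 1 without barcodes with other markers, with stricter classes and with free RNA removed, and genes lower from 3 to 9 without barcodes with other markers and to 6 after thinning. In TAL-β, genes higher went from 0 to 1 after thinning, and genes lower from 2 to 1 with at least 20 Slc12a1 counts and with median scaling. In macula densa, genes higher went from 0 to 1 after thinning and with a minimum of 20 counts, and genes lower from 1 to 3 without barcodes with other markers and after thinning, and to 2 with stricter classes, deposited clusters and a minimum of 20. For TAL-β against TAL-α, genes higher went from 0 to 1 in cortex with at least 20 Slc12a1 counts, Scrublet, thinning, deposited clusters and free RNA removed, and in medulla with stricter classes, median scaling, deposited clusters and free RNA removed. Genes lower in medulla went from 5 to 8 with a minimum of 20 counts. For TAL-γ against TAL-α, genes higher went from 0 to 1 with deposited clusters. For macula densa against TAL-α, genes lower in cortex went from 1 to 0 with at least 20 Slc12a1 counts, stricter classes and thinning, and to 2 with median scaling and free RNA removed, and in medulla from 0 to 1 with at least 20 Slc12a1 counts and with Scrublet. Along the axis, genes higher in medulla went from 1 to 2 without barcodes with other markers and with median scaling, deposited clusters, a minimum of 20 counts and free RNA removed. In cortex genes higher went from 0 to 2 and genes lower from 6 to 10 with a minimum of 20 counts, and genes lower went to 1 without barcodes with other markers. The cause of these changes was not tested, apart from the minimum of 20 counts, which lets in more genes. In deposited clusters the cortical nuclei with Tmem207 plus Gpc5 counts left 0 barcodes.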
